A study of Homo sapiens with 16 samples.

Results

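Of the 6206 G-quadruplex (G4) loci detected by CUT&Tag in A549 cells, 2207 were found in all 3 siRNA conditions and on a region marked by H3K4me3. These 2207 are called the shared loci here. They were chosen from the peak calls themselves. Peaks of the siControl, siBAZ2A and siBAZ2B lists with at least 1 base in common were joined into loci, and a locus was kept if it held a peak of every list and had at least 1 base in common with an H3K4me3 peak. Because presence in the lists chose the loci, that presence, the height of the peaks in those lists and the overlap with H3K4me3 are given as a description, with no test.

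A549 is an established human lung carcinoma line. The cells had been transfected for 48 hours with 71 nM of a control siRNA (siControl) or of an siRNA against BAZ2A or BAZ2B, and G4 structures were mapped with the antibody BG4 in each of these 3 groups. H3K4me3 was mapped in siControl cells only, so the mark after either knockdown is not known from these data. Each of the 4 groups had 4 replicates, and the deposited list of a group holds the peaks seen in at least 2 of them. The lists hold 3332 (siControl), 4257 (siBAZ2A), 4865 (siBAZ2B) and 18596 (H3K4me3) peaks. They carry no value per replicate, so no value below has a replicate error, and differences between conditions could not be tested. Intervals given with shares and medians are 95% intervals over loci and cover counting error only. Read depth affects how many peaks are called and how wide they are; the sources used here do not give it. All libraries come from 1 cell line. How far either siRNA lowered its target was not analysed here.

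A G4 forms where a DNA strand carries several short runs of guanines, which stack into flat squares held by a metal ion. In chromatin such structures are found mostly at nucleosome-depleted, GC-rich promoters of active genes, where the flanking nucleosomes carry H3K4me3. BAZ2A belongs, as its large subunit, to the NoRC complex of the nucleolus, which is known to silence genes for ribosomal RNA. BAZ2B is its close relative and likewise carries a bromodomain. In CUT&Tag a transposase tethered to the antibody cuts the DNA around the bound site, so a peak marks open, cut DNA within a few nucleosomes of the structure and not the structure itself. No genome sequence or gene annotation of build hg19 was used here, so loci are given by hg19 position (1-based), without a gene name or sequence.

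The shared loci were a large part of every list and the greater part of its strong peaks. Loci held by all 3 lists were 37.4% of all loci and loci on H3K4me3 were 88.9%, and the 2207 that met both rules were 35.6% (34.4 to 36.8). They took in 2211 of the 3332 siControl peaks (66.4%, 64.7 to 67.9), 2218 of the 4257 siBAZ2A peaks (52.1%, 50.6 to 53.6) and 2230 of the 4865 siBAZ2B peaks (45.8%, 44.4 to 47.2). Each shared locus holds a peak of every list, so these 3 counts are close by construction and the share falls with list length. The shares by quintile below depend on list length too. With only the stronger 50% of H3K4me3 peaks by fold, the shared loci numbered 1078. In siControl the part taken by the shared loci went from 31.2% of the weakest quintile of peaks by fold (27.8 to 34.8) to 90.3% of the strongest (87.8 to 92.3). In siBAZ2A it went from 24.3% (21.5 to 27.3) to 82.4% (79.7 to 84.8), and in siBAZ2B from 29.2% (26.4 to 32.1) to 70.3% (67.4 to 73.1). Weak peaks were therefore present too, and 213 shared loci lay in the weakest 10% of at least 1 list.

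Most shared loci were simple in structure. A single peak of each list made up 2171 of the 2207 (98.4%, 97.8 to 98.8). In 2195 the strongest peaks of the 3 lists had a stretch in common, with a median length of 495 bp (quartiles 378 and 645), while the median peak width was 665 bp for siControl, 639 bp for siBAZ2A and 681 bp for siBAZ2B. Over the whole lists it was lower, 597 bp for siControl, 562 bp for siBAZ2B and between 539 and 557 bp (95% interval) for siBAZ2A. The siBAZ2A peak was the narrowest of the 3 at 897 loci, against 642 for siControl and 651 for siBAZ2B, and the siBAZ2B peak was the widest at 875 loci, against 773 and 553. Per the labels, peak coordinates come from 1 replicate per list. All peaks of a list carry the name of 1 run, so folds and summits may rest on that run too. Which of the 4 replicates this run is was not settled, and its part in this order was not tested.

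At the shared loci fold enrichment had a similar range in every list. The fold of a peak is the value that the authors' peak caller gave it over local background. It had a median of 7.65 in siControl (quartiles 6.53 and 8.91), 7.90 in siBAZ2A (6.64 and 9.29) and 6.74 in siBAZ2B (5.74 and 7.92). The medians of the whole lists were 7.05, 7.01 and 6.17, so siBAZ2B was the lowest there as well. Folds are scaled within a library, so loci were compared between lists by percentile, the rank of a peak by fold in its own list (0 weakest, 100 strongest). The shared loci had a median percentile of 62.2 (60.2 to 64.001) in the siControl list, 66.4 (64.8 to 68.2) in that of siBAZ2A and 63.7 (62.5 to 65.96) in that of siBAZ2B. A percentile also depends on how many weaker peaks outside the shared loci its list holds.

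**Figure D1:**
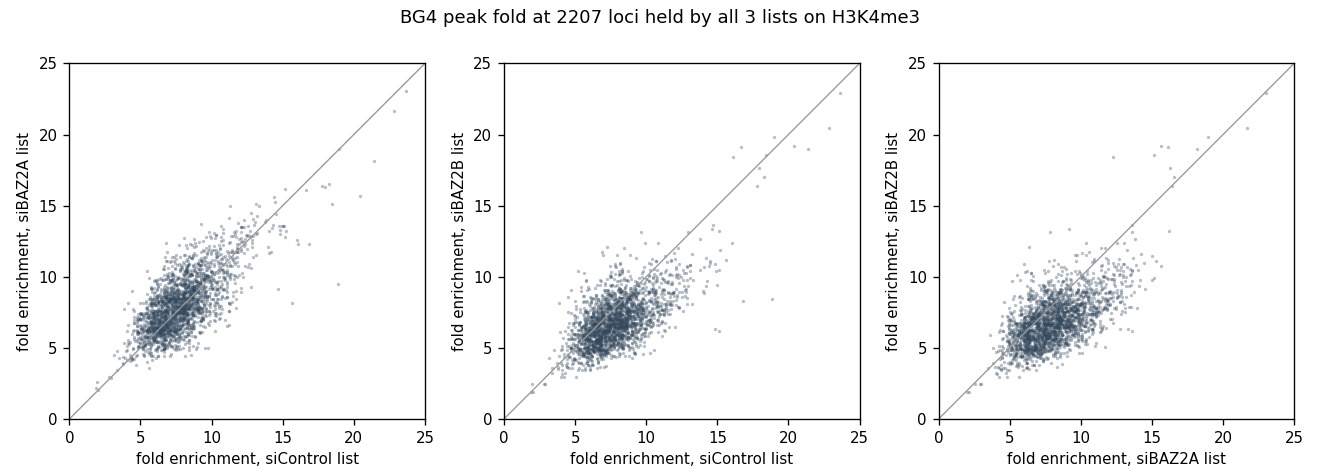
Fold enrichment of the strongest BG4 peak at each of the 2207 shared loci, plotted for each pair of lists (1 point per locus, both axes linear, grey line at equal fold). Points scatter widely, and a few loci stand at the upper right in all 3 panels, with Spearman correlations of 0.649, 0.561 and 0.553 from left to right.

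The order of the loci by fold was only partly the same in the 3 lists. Over the 2207 loci Spearman's rho was 0.649 between siControl and siBAZ2A, 0.561 between siControl and siBAZ2B and 0.553 between siBAZ2A and siBAZ2B (Pearson's r 0.732, 0.666 and 0.636). The points are loci of the same chromatin and share local background and mappability, so these values describe the lists and carry no p-value. The 3 percentiles of a locus spanned a median of 26.6 points (quartiles 14.5 and 40.01). They spanned at most 10 points at 390 loci and over 50 points at 279. The strongest 10% of all 3 lists held 132 of the shared loci, while 635 were in the strongest 10% of at least 1 list.

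The 10 shared loci of highest mean percentile were at the top of every list. The highest mean percentile belonged to chr12:133841406-133842038, with folds of 23.6 in siControl, 23.03 in siBAZ2A and 22.9 in siBAZ2B. The next was chrX:155259883-155260515, with folds of 22.8, 21.7 and 20.4 in the same order. At chr3:73159853-73160318 the folds were 21.4, 18.1 and 19.01. These 3 loci had the highest folds of all shared loci in siControl.

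At chr1:236260281-236260836 the folds were 18.98 in siControl, 18.96 in siBAZ2A and 19.8 in siBAZ2B. At chr1:31904498-31905137 they were 20.4, 15.6 and 19.2, and all 3 percentiles were above 99. The locus chr12:95232-95872 had folds of 18.2, 16.5 and 17.03. The remaining 4 of the 10 strongest were chr1:9868-10466, chr4:191043750-191044402, chr1:249239912-249240525 and chr16:1075138-1075761. Over the 10 loci fold ranged from 16.7 to 23.6 in siControl, from 15.1 to 23.03 in siBAZ2A and from 16.4 to 22.9 in siBAZ2B. A high siControl fold did not always go with this. At chr2:33141151-33141706, named after its values were seen, the folds were 18.9, 9.47 and 8.45, a siBAZ2A percentile of 86.1 against 99.7 in siControl, and the 3 summits lay within 12 bp.

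These 10 loci differed in form from most shared loci. Their H3K4me3 peaks were 494 to 683 bp wide, under the lower quartile of all shared loci (1148 bp), and at 9 of the 10 both borders of the siControl BG4 peak lay within 100 bp of the H3K4me3 borders. Such matching borders occurred at 103 of the 2207 shared loci (4.67%, 3.86 to 5.63). The H3K4me3 peaks of these 103 loci were narrow, with a median of 657 bp against 1484 bp for all shared loci. Matching borders were not confined to strong loci, at 5.88% of the weakest decile by mean percentile and 8.60% of the strongest. The H3K4me3 peaks of the 10 loci had folds of 11.5 to 23.4, against a median of 7.96 over the shared loci. The antibodies BG4 and anti-H3K4me3 thus gave peaks of nearly the same outline there.

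Chromosome ends were frequent among the strongest loci. Telomeres, the repeats that cap chromosomes, are known to form G4s. Of the 10 strongest loci, 5 were the first or last peak of any list on their chromosome, namely the loci on chromosomes 4, X and 1 (at both ends) and the one at position 133841406 of chromosome 12. In all, 10 of the 2157 shared loci on chromosomes 1 to 22 and X held such an outermost place. By decile of mean percentile, 29 of 221 loci in the strongest decile lay within 1 Mb of the outermost peak (13.1%, 9.29 to 18.2), against 118 of all 2207 shared loci (5.35%). The other 9 deciles had 5 to 14 such loci each. Decile 9, the next strongest, had the fewest, with 5 of 221 (2.26%). Distances are to the outermost peak and not to the chromosome's end, and the sources used here do not say how reads that match several places were handled.

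**Figure D2:**
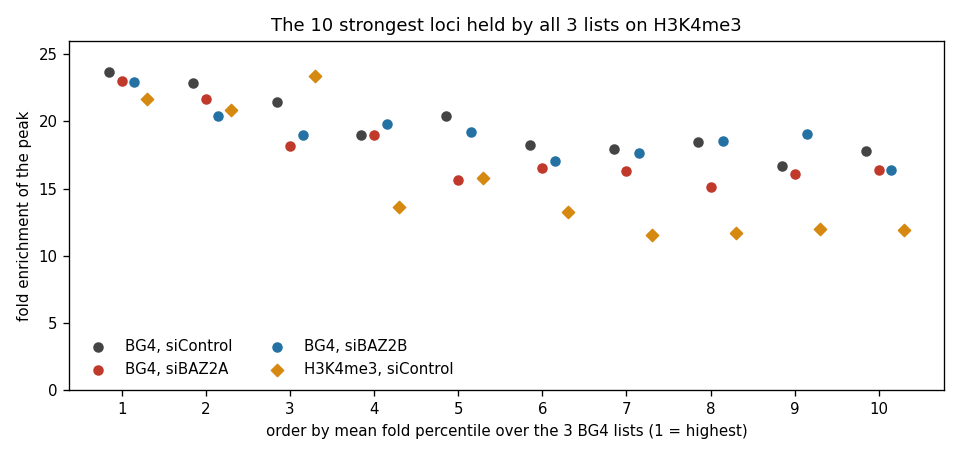
Fold enrichment of the BG4 peak in the siControl, siBAZ2A and siBAZ2B lists (circles) and of the H3K4me3 peak in siControl (diamonds) at the 10 shared loci of highest mean percentile, in order. Every BG4 fold is at least 15.1, and the H3K4me3 fold exceeds all 3 BG4 folds at the third locus alone.

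Other shared loci moved far within the lists. The largest rise from siControl to siBAZ2A was at chr3:127309608-127310173, with a fold of 4.39 for siControl, 9.03 for siBAZ2A and 5.33 for siBAZ2B, a rise of 78.2 percentile points in siBAZ2A. It was followed by chr2:233561746-233562601, with folds of 5.44, 10.4 and 6.46, and by chr10:126772898-126773493, with percentiles of 20.1, 89.3 and 69.4. At all 3 the siBAZ2B percentile lay between the other values, which choosing loci by the widest gap makes likely.

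The largest fall from siControl to siBAZ2A was at chr13:114830611-114831386, with folds of 9.75 in siControl, 4.96 in siBAZ2A and 6.03 in siBAZ2B. At chr11:65479303-65480254 the folds were 9.56, 4.96 and 6.30, and at chr10:70091352-70092022 they were 8.89, 4.91 and 6.55. Here too the siBAZ2B percentile lay in between at each locus. Over all shared loci, 346 stood more than 25 points higher in siBAZ2A than in siControl (15.7%, 14.2 to 17.3) and 232 more than 25 points lower (10.5%, 9.30 to 11.9). Both knockdown lists are longer than that of siControl and hold more peaks outside the shared loci. A locus can thus rise in percentile without a change of its own, and the part of this in the counts was not tested.

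In siBAZ2B the largest rise was at chr2:120517139-120517704, with folds of 4.73 in siControl, 7.20 in siBAZ2A and 9.06 in siBAZ2B. At chrX:41301398-41302006 the folds were 4.52, 5.64 and 8.56, and at chr10:69834443-69835076 they were 3.85, 7.75 and 8.14. The siControl peak of each of these 3 loci was weak, with percentiles of 6.77, 4.74 and 1.28, and 299 bp wide, the least width in that list. This width occurred at 18 of the 2207 shared loci (0.816%) and in 133 of all 3332 siControl peaks (3.99%). The falls were led by chr19:54511498-54512142 (10.3, 7.29 and 4.62), chr10:111985695-111986241 (9.79, 8.01 and 4.55) and chr1:9294386-9295266 (10.6, 7.08 and 4.88). At these 6 loci the siBAZ2A percentile lay between the others, which the choice of loci again makes likely. Of the shared loci, 371 stood more than 25 points higher in siBAZ2B than in siControl (16.8%, 15.3 to 18.4) and 317 more than 25 points lower (14.4%, 12.96 to 15.9). The limit set by list length applies to these counts as well. Both knockdown lists were set against the same siControl list, and the loci named here are the extremes of 2207 values without replicates, so their shifts in rank are given as a description.

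The summit, the point of highest signal in a peak, was compared between the lists at each shared locus. The summits of the strongest peaks lay a median of 63 bp apart between siControl and siBAZ2A (59 to 66), 67 bp between siControl and siBAZ2B (62 to 71) and 64 bp between the 2 knockdowns (61 to 69). The 3 pairs of lists did not differ beyond these intervals. All 3 summits lay within 50 bp at 413 loci (18.7%, 17.1 to 20.4), within 100 bp at 999 loci (45.3%, 43.2 to 47.3) and within 200 bp at 1660 loci (75.2%, 73.4 to 76.97). The choice of loci required a shared base and so limits these distances.

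Summits agreed best at strong loci. The median of the largest distance between the 3 summits was 111 bp over all shared loci (106 to 117), 167 bp in the weakest decile by mean percentile (143 to 186) and 50.0 bp in the strongest (45 to 57). The 3 summits lay within 100 bp at 53 of 221 loci of the weakest decile (23.98%, 18.8 to 30.03) and at 190 of 221 of the strongest (86.0%, 80.8 to 89.9). The part of peak height itself in how well a summit is placed was not tested. Loci that missed 1 list had a larger median summit distance in all 3 classes, and the intervals overlapped in 1 of them. The siBAZ2A and siBAZ2B summits were a median of 87 bp apart at the 872 H3K4me3 loci without a siControl peak (80 to 95), against 64 bp at the shared loci, and the intervals did not overlap. At the 209 loci of siControl and siBAZ2A the distance was 82 bp (74 to 103) against 63 bp, again without overlap, and at the 298 of siControl and siBAZ2B it was 77 bp (66 to 103) against 67 bp, with overlapping intervals. All 3 classes were also weaker by the median of their mean percentiles over the lists that hold them. It was 45.8 for loci of both knockdowns, 34.2 for siControl and siBAZ2A and 38.4 for siControl and siBAZ2B, against 62.4 at the shared loci.

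**Figure D3:**
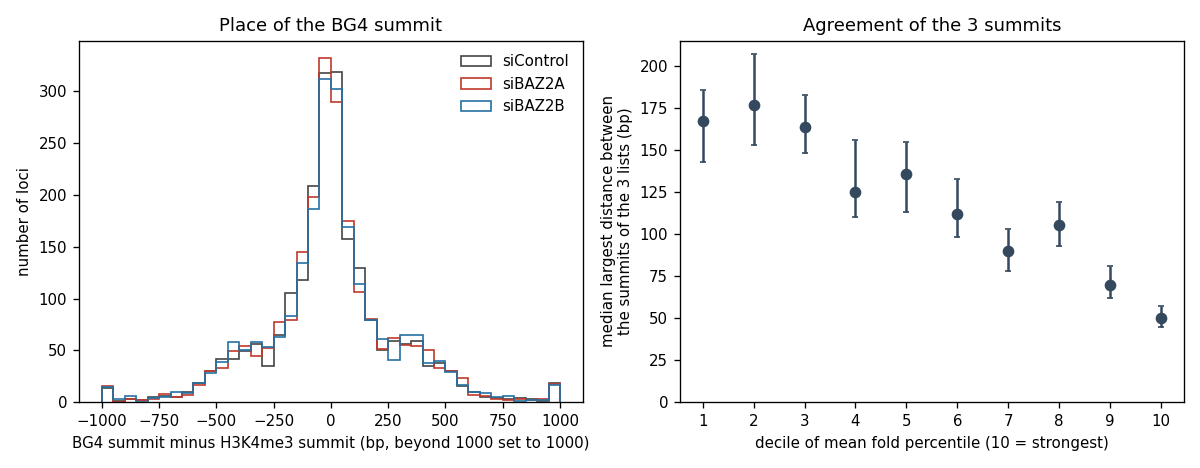
Left, signed distance from the H3K4me3 summit to the BG4 summit of each list at the shared loci (bins of 50 bp, number of loci). Right, median of the largest distance between the 3 BG4 summits by decile of mean percentile, with 95% intervals. The 3 lists lie on each other with a narrow centre and a shoulder on either side, and the summit distance falls from 167 bp in the weakest to 50.0 bp in the strongest decile.

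The place of the BG4 summit within the H3K4me3 region was similar in the 3 lists. The BG4 summit lay inside the H3K4me3 peak at 2191 loci in siControl, 2192 in siBAZ2A and 2191 in siBAZ2B. The whole locus lay inside the H3K4me3 peak at 1444 loci (65.4%, 63.4 to 67.4). The central 50% of the H3K4me3 peak held the siControl summit at 1567 loci (71.0%, 69.1 to 72.9), the siBAZ2A summit at 1602 (72.6%, 70.7 to 74.4) and the siBAZ2B summit at 1561 (70.7%, 68.8 to 72.6). A peak that lies inside a region cannot have its summit close to the border, so these shares are a description and were set against no expected value.

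The distance to the H3K4me3 summit had a median of 118 bp in siControl (108 to 129), 119 bp in siBAZ2A (111 to 132) and 124 bp in siBAZ2B (115 to 135). The plot of summit distances shows a narrow centre and a shoulder on either side. The siControl summit lay within 50 bp of the H3K4me3 summit at 639 loci (29.0%, 27.1 to 30.9), and more than 250 and up to 600 bp from it at 565 (25.6%, 23.8 to 27.5). The siBAZ2A list had 627 and 587 loci in these ranges, and the siBAZ2B list 621 and 598. The distance was longer in wider regions, with a median of 75.5 bp in the narrowest 25% of H3K4me3 regions (66 to 87) and 154.5 bp in the widest 25% (131 to 177). Wider regions also leave more room for it. The siControl summit's distance from the region centre, as a part of that from centre to border, had medians of 0.299 and 0.375. The distance to the H3K4me3 summit was shorter at strong loci, with 66 bp in the strongest decile by mean percentile (51 to 76) and 179 bp in the weakest (146 to 229).

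The shared loci lay on H3K4me3 regions of the highest median width among the classes of loci on the mark, grouped by the lists that hold them. Their H3K4me3 peaks had a median width of 1484 bp (1461 to 1508). The width was 1391.5 bp for the loci of both knockdowns without siControl (1359 to 1428), 1361 bp for those of siBAZ2A alone (1304 to 1406), 1313 bp for those of siBAZ2B alone (1281 to 1344) and 1312 bp for those of siControl alone (1251 to 1376). None of these intervals reached that of the shared loci. For loci of siControl and siBAZ2A the width was 1398 bp (1298 to 1503), an interval that overlapped it, and for loci of siControl and siBAZ2B it was 1357.5 bp (1269 to 1425), which did not. The 13127 H3K4me3 peaks without any BG4 peak were 998 bp wide (987 to 1009).

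Strength of the H3K4me3 peak showed another order. By percentile of fold in their own list, the H3K4me3 peaks of shared loci had a median of 49.0 (46.8 to 50.6), close to the 48.4 of H3K4me3 peaks without BG4 (47.5 to 49.3) and below the 57.5 of loci of both knockdowns without siControl (54.5 to 60.8) and the 58.5 of siBAZ2B alone (55.9 to 61.3). The median was 49.3 for loci of siControl and siBAZ2A (38.98 to 58.4), 54.8 for those of siControl and siBAZ2B (48.9 to 59.04), 54.7 for siControl alone (48.8 to 59.6) and 53.1 for siBAZ2A alone (48.9 to 56.98), and these 4 intervals overlapped that of the shared loci. Over the shared loci rho between H3K4me3 width and percentile was -0.566. The BG4 mean percentile had a rho of 0.257 with the H3K4me3 percentile and -0.0408 with H3K4me3 width. In the weakest BG4 decile the median H3K4me3 percentile was 23.6 (19.1 to 30.9), and in the strongest it was 60.03 (52.9 to 68.9). The rise was mostly among the weakest loci, with 40.1 in decile 2 and 48.1 in decile 3. Deciles 4 to 9 lay between 48.9 and 57.5 without a steady order. These correlations are across loci and are a description.

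Seen from the H3K4me3 list, 2207 of its 18596 peaks (11.9%, 11.4 to 12.3) touched a shared locus. The number equals that of the loci because 5 loci touched 2 or more H3K4me3 peaks while 5 H3K4me3 peaks carried a pair of loci. Ordered by width, each quintile of H3K4me3 peaks had a higher share than the one before it, from 3.41% (2.88 to 4.05) over 6.59%, 9.73% and 15.9% to 23.7% (22.4 to 25.1). By fold of the H3K4me3 peak it was 9.25% in the weakest quintile (8.36 to 10.2), 14.4% in the next (13.3 to 15.6) and 10.1% in the strongest (9.21 to 11.1). A wider peak also offers more bases for an overlap.

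**Figure D4:**
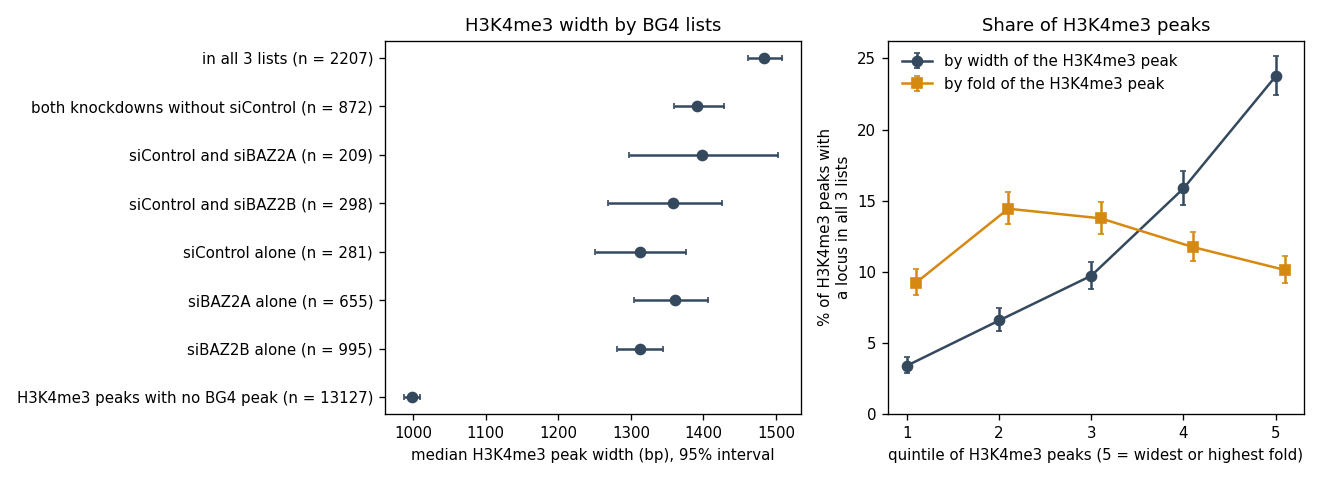
Left, median width of the H3K4me3 peak (bp, 95% interval, axis not starting at 0) for loci classed by the BG4 lists that hold them, and for H3K4me3 peaks without BG4. Right, share of H3K4me3 peaks that touch a shared locus by quintile of their width or fold, with 95% Wilson intervals, which rises from 3.41% to 23.7% by width and peaks at 14.4% in the second quintile by fold.

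On 5 H3K4me3 regions a pair of separate shared loci was found, 2 of these regions on chromosome 17 and 3 on chromosome 19. The closest pair was chr19:42461883-42463093 and chr19:42463234-42463837, with 140 bases between them. Folds at the first were 5.29 in siControl, 5.19 in siBAZ2A and 4.90 in siBAZ2B, and at the second 4.27, 4.07 and 3.25, so the first was higher in every list. The next closest pair, chr19:36134079-36134742 and chr19:36135081-36135826, had 338 bases between its loci, on an H3K4me3 region of 1789 bp. The pair at chr15:75742916-75743552 and chr15:75743957-75744801 was 404 bases apart, on separate H3K4me3 peaks. On chromosomes 1 to 22 and X, neighbouring shared loci were a median of 254368 bases apart, and 77 of 2134 neighbours (3.61%, 2.90 to 4.49) were under 10 kb apart.

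Chromosomes differed both in the share of H3K4me3 peaks that carried a shared locus and in the share of siControl loci that were shared. Chromosome 19 had 260 shared loci, on 20.9% of its H3K4me3 peaks (18.7 to 23.2), and chromosome 17 had 226, on 19.0% (16.8 to 21.3). Chromosome 6 had 33, on 3.77% (2.71 to 5.22), chromosome 18 had 11, on 3.89% (2.18 to 6.82), and chromosome 13 had 16, on 4.72% (2.93 to 7.53). Of the siControl loci on H3K4me3, 80.7% were shared on chromosome 19 (76.1 to 84.7), 72.9% on chromosome 17 (67.7 to 77.5) and 57.9% on chromosome 18 (36.3 to 76.9). A further 28 shared loci on alternative haplotypes of chromosome 6 are not in the counts of that chromosome. Without them chromosome 6 was lowest with 33 of 65 (50.8%, 38.9 to 62.5), and its interval lay below those of chromosomes 1, 2, 3, 5, 7, 8, 10, 11, 12, 14, 15, 16, 17 and 19.

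**Figure D5:**
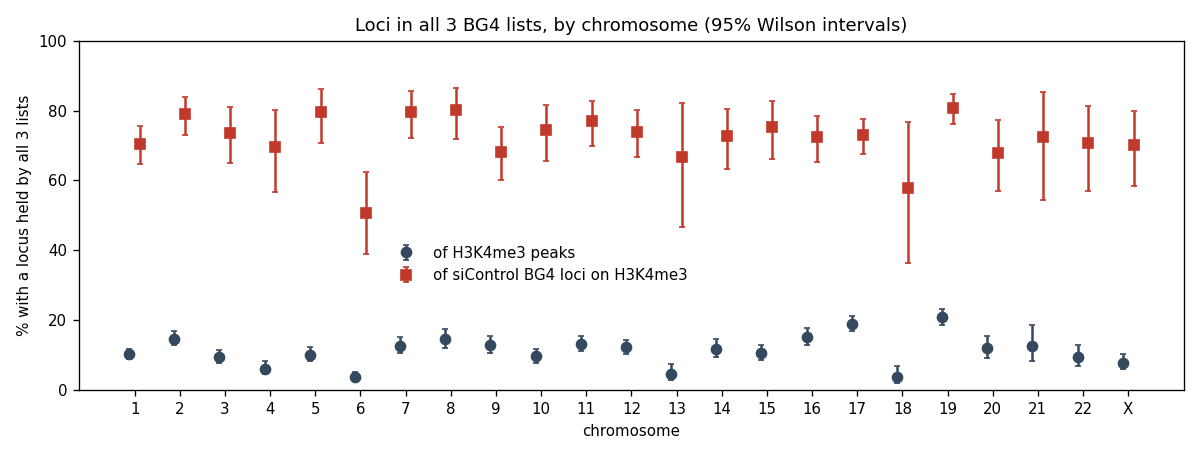
Share of H3K4me3 peaks (circles) and of siControl BG4 loci on H3K4me3 (squares) that belong to a shared locus, by chromosome, with 95% Wilson intervals. Circles range from 3.77% on chromosome 6 to 20.9% on chromosome 19, and the squares lie between 57.9% and 80.7% except for 50.8% on chromosome 6.

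Some shared loci did not lie on the main chromosomes. Besides the 2157 on chromosomes 1 to 22 and X, 28 lay on alternative haplotypes of chromosome 6 and 2 on one of chromosome 17. These sequences repeat regions that the build also holds on the main chromosome, so 1 stretch of DNA can count more than once. A further 14 were on unplaced or unlocalised contigs, 4 on chromosome Y and 2 on chromosome M. Mitochondrial DNA carries no histones, so the H3K4me3 overlap there goes against the mark's name.

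Of the 5 shared loci of lowest mean percentile, 4 were on chromosome M or an unplaced contig. At chrM:12857-16491 the folds were 1.88 in siControl, 2.16 in siBAZ2A and 1.89 in siBAZ2B, and at chrM:89-3038 they were 2.01, 2.02 and 1.87. The H3K4me3 folds at these loci, 2.16 and 2.70, were also near the bottom of their list. The third was chr1:228780332-228780882, with folds of 1.98, 2.58 and 2.43 and an H3K4me3 fold of 2.07.

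The other members of the lowest 5 were on the unplaced contig chrUn_gl000220, which is known to carry ribosomal RNA gene sequence, the class of genes that BAZ2A is known to silence. At 104570 to 107034 on this contig the folds were 2.79 in siControl, 2.98 in siBAZ2A and 2.48 in siBAZ2B, and at 148562 to 150994 they were 2.90, 2.88 and 2.48. Both loci were thus at the bottom of every list, with percentiles of 0.195 and 0.255 in siControl, 0.176 and 0.153 in siBAZ2A and 0.216 and 0.195 in siBAZ2B. The peaks were wide, at 1780, 2060 and 1048 bp for the first and 1758, 2157 and 1013 bp for the second, and their summits lay up to 1307 and 1236 bp apart between lists. Another locus on the contig, at 6957 to 8251, was strong, with folds of 11.05, 11.3 and 8.18 and summits within 40 bp. It was named here after its values were seen. Without an annotation, it is not known which of the loci on this contig lie in ribosomal RNA gene sequence. Ribosomal RNA genes exist in many near-identical copies, so reads counted here may come from copies elsewhere and the values are uncertain.

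The longest stretches common to all 3 lists were on such sequences as well. They were 3479 bp and 2040 bp at the loci on chromosome M, 2831 bp at position 84782 to 87948 of chr17_gl000205_random and 2384 bp at 30440 to 33218 of chr7_gl000195_random. The longest on a main chromosome was 1748 bp at chr5:9988-11795, the outermost peak of that chromosome. Its folds were 6.03 in siControl, 6.35 in siBAZ2A and 6.65 in siBAZ2B. The H3K4me3 peaks of highest fold at shared loci were those at the third, first and second of the strongest loci above (23.4, 21.7 and 20.9), followed by chr21:48118929-48119387 (18.3) and chr19:41945470-41945923 (18.1). At the chromosome 21 locus the BG4 folds were 9.97 in siControl, 11.7 in siBAZ2A and 9.29 in siBAZ2B, and at the chromosome 19 locus they were 10.4, 11.4 and 9.56.

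Some loci lay close to the limits of the rule. The shared locus with the fewest bases in common with H3K4me3 was chr9:139923214-139924114, with 90 bases, followed by a locus on the haplotype chr6_cox_hap2 with 109 and the chromosome 1 locus of low fold named above with 243. The strongest peaks of the 3 lists had a stretch in common at 2195 of the 2207 shared loci and none at the rest. Among the 2195 the shortest stretch was 26 bases, at chr6:159065400-159066184, followed by 56 bases at chr7:99698213-99699565 and 58 at chr7:44924821-44925579. Just outside the rule were chr19:3276116-3276675, 24 bases from the nearest H3K4me3 peak, chr9:130955040-130955704 at 554 bases and a locus of chrUn_gl000228 at 821. The folds at the chromosome 19 locus were 8.68 in siControl, 9.23 in siBAZ2A and 6.79 in siBAZ2B, well within the range of the shared loci. In all, 115 loci of all 3 lists had no H3K4me3 peak, and their mean percentile had a median of 45.4 (34.4 to 54.2) against 62.4 for the shared loci (61.2 to 63.7). Their median peak widths were 471, 455 and 503 bp, in the order of lists used above, and so below those of the shared loci.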

How the data were processed

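CUT&Tag libraries of 16 samples (4 groups of 4 replicates) are represented by 4 deposited peak lists. Per the labels, the authors kept peaks present in at least 2 replicates, taking the replicate with the most peaks as the base. The submitters' processing notes name Bowtie2 2.4.5, Picard, SAMtools 1.15.1, bedtools, MACS2 2.1.4 and, as builds, hg19 and dm6. The deposited fold enrichment (a ratio), the deposited −log10 q and the deposited summit offset of each peak come from the authors' peak caller. The sources used here give no depth.

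Loci were built as the report states, with the strongest peak by fold standing for a list. The H3K4me3 partner was the peak with most shared bases. Shares carry Wilson intervals and medians binomial order-statistic intervals, both at 95%. The functions were tested on simulated data. No difference was tested, since the lists hold no value per replicate. Named loci are the highest and lowest by mean percentile (10 and 5), the 3 largest rises and falls per knockdown, the 5 highest H3K4me3 folds, the 5 longest common stretches, the closest pairs and those nearest the limits of the rule. The members, the tests and these rules were chosen with earlier results of these data known. Motifs, genes and planned gene lists were not analysed here, as no hg19 sequence or annotation was used. Alternatives are given in the closing section. Scripts ran under Python 3.11.15 with NumPy 2.4.6, pandas 2.3.3, matplotlib 3.10.9 and SciPy 1.17.1.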

Additional observations from a re-analysis of the deposited data

How the results depend on the processing

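The number of shared loci was 1078 when only the stronger 50% of H3K4me3 peaks counted, against 2207, and stayed between 1669 and 2209 in the other 6 settings. The median largest summit distance of 111 bp was 100.0 bp at a −log10 q of at least 5, 99 bp with lists of equal length and 101 bp with the stronger H3K4me3 peaks. The siControl distance to the H3K4me3 summit, 118 bp, was 105 bp with lists of equal length and 93 bp with the stronger H3K4me3 peaks. The H3K4me3 width of 1484 bp was 1278 bp with the stronger H3K4me3 peaks. The share of siControl peaks on H3K4me3 that lay in shared loci, 73.7%, was 71.5% at a −log10 q of at least 5, 55.7% with lists of equal length and 64.8% with a reciprocal overlap of 50%. Each of these settings keeps fewer peaks or loci by construction. Using summits inside H3K4me3, merging across 1 kb, or leaving out chromosomes M and Y and contigs moved none of the 5 values beyond its interval (for the count of loci, beyond 1.5 times). No paired analysis was possible because each group is given as 1 list without values per replicate. Leaving out a replicate was likewise not possible.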
